A study of Mus musculus with 18 samples.

Results

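The 7 genes followed here belong to the fetal blood programme, and were traced through open chromatin maps of adult mouse stem and progenitor cells: Lin28a, Lin28b, Hmga2, Igf2bp1, Igf2bp2, Igf2bp3 and Arid3a. A peak row belonged to a gene when its summit lay in the gene body on mm10 or within 50 kb of it. This gave 703 of 597826 peak rows, which merged into 102 of 94178 accessible regions. Of the 102 regions, 11 belonged to Lin28a, 4 to Lin28b, 23 to Hmga2, 7 to Igf2bp1, 14 to Igf2bp2, 17 to Igf2bp3 and 26 to Arid3a.

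The maps came from ATAC-seq, in which the Tn5 transposase cuts and tags accessible DNA. Cells were HSC, the haematopoietic stem cells, and HPC, the progenitors downstream of them. At 8 weeks of age there were 2 HPC and 2 HSC samples of Kmt2c f/f; Vav-Cre mice, in which a floxed Kmt2c gene, for a histone methyltransferase, is deleted by Cre under the blood-cell promoter of Vav, and 4 HPC and 2 HSC samples of wild-type mice. At 16 weeks there were 4 samples of wild-type HSC given 5-fluorouracil, a chemotherapy drug toxic to cycling cells, dosed at 150 mg/kg, and 4 given the vehicle PBS, both in 3 injections 3 weeks apart. The 16-week groups carried no Kmt2c deletion, and the labels do not say whether the wild-type mice carried Cre or the floxed allele, nor which surface markers defined the sorted cells. Peak lists do not measure the loss of Kmt2c. The values used here are 1 peak list per group with its samples pooled, so no replicate error and no test was available. Presence or absence of a region describes that list, and 95% Wilson intervals cover counting error over regions only.

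In the fetus LIN28B binds the precursors of let-7 microRNAs and blocks their maturation, and this keeps up HMGA2 and the IGF2BP proteins, which let-7 would otherwise repress. Lin28b is known for high expression in fetal and low expression in adult blood stem cells. HMGA2 is a chromatin protein that promotes stem cell self-renewal, and ARID3A is a DNA-binding protein of lymphoid cells that is itself a let-7 target.

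The starts of 3 of these genes are shown, because the lists differ at or near each of them, as RefSeq gives them on GRCm38.p6. Each window holds 250 bases before and 50 after the tabled start, on the minus strand, and all are written 5′ to 3′. Capitals mark matches, on either strand, to any of 8 motifs. Of these, the RUNX motif was searched as TGTGGT and occurs in 16.8% of all 32851 windows of this length in the table. The motif of GATA factors was searched as AGATAA and occurs in 11.2% of them. For ETS factors it was CCGGAAG, in 8.86%. For AP-1 it was TGANTCA, in 7.81%. The E-box was searched as CANNTG, which occurs in 72.3%. For Sp factors it was GGGCGG, in 35.7%. For NFY it was CCAAT, in 37.4%. The last was CRE, searched as TGACGTCA, in 1.79%.
Hmga2, chr10:120476420-120476719, within a merged accessible region that 4 of the 6 lists held: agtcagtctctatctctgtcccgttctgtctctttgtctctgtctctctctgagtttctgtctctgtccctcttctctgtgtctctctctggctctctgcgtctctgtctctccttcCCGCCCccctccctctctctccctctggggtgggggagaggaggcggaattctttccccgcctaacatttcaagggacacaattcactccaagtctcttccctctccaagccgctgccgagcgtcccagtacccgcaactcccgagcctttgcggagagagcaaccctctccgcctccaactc
Lin28b, chr10:45470152-45470451, outside every accessible region but near one of 3 lists: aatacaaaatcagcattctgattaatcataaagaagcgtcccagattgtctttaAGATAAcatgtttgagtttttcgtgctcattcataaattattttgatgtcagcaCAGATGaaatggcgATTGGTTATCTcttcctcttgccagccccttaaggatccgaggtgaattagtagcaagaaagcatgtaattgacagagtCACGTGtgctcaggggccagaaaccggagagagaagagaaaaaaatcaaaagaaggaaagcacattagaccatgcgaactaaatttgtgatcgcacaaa
Igf2bp2, chr16:22163250-22163549, within a merged region of the 16-week lists: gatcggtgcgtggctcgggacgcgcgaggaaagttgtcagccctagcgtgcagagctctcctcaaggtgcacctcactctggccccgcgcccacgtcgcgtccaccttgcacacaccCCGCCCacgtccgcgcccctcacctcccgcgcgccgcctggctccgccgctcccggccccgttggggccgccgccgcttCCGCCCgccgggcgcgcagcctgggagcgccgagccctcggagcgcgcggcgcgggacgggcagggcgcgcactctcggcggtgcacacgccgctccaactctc

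The 3 windows differ in base composition. G and C made up 76.7% of the Igf2bp2 window, with 47 CpG pairs, 57.7% of the Hmga2 window, with 12, and 39.0% of the Lin28b window, with 8. Over all 32851 RefSeq promoter windows the median was 52.7% with 7 CpG pairs, and 8.38% of windows held less G and C than that of Lin28b. The Hmga2 window held 1 Sp motif and the Igf2bp2 window 2. The Lin28b window held 2 GATA motifs, 2 E-boxes and 1 NFY motif. The NFY and 1 GATA match adjoin there in a single capital run. RUNX, ETS, AP-1 and CRE motifs matched none of the 5 member windows in the table. Igf2bp1 and Arid3a have no window in the table. Such matches describe the letters only.

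At the annotated ends of the 7 genes, accessible chromatin was in neither list of 8-week HSC. Counting a region within 1 kb of either gene end, 2 of the 7 genes had one in knockout HPC and 1 in wild-type HPC, 0 in knockout HSC and 0 in wild-type HSC, and 4 each in 5-fluorouracil and vehicle HSC. Over all 21887 protein-coding genes the share was 54.5% in knockout HPC, 59.7% in wild-type HPC, 55.2% in knockout HSC, 51.7% in wild-type HSC, 63.3% in 5-fluorouracil HSC and 65.3% in vehicle HSC. Neither 8-week HSC list had such a region at 42.9% of all genes. The 8-week and 16-week HSC lists differ in length, at 48620 regions for knockout HSC and 40073 for wild-type HSC, against 71363 for 5-fluorouracil HSC and 80100 for vehicle HSC. They also differ in age, handling and number of samples pooled, and these cannot be told apart. Within 2.5 kb of an end in place of 1 kb, 4 genes had a region in knockout HPC, 3 in wild-type HPC and 6 each in 5-fluorouracil and vehicle HSC. No share over all genes was computed at 2.5 kb. In 8-week HSC the count was 1 in knockout, for Lin28a, and 2 in wild type, for Lin28a and Igf2bp2. These were the lower ends of the 2 genes, away from their tabled starts. The Igf2bp2 region, 22061426 to 22062641, was in all 6 lists, with 10.4 in knockout HSC and 12.0 in wild-type HSC. Its absence from the knockout count reflects where the rows of that list ended. The Lin28a region held by both lists, 134000424 to 134001330, also lay at an end of the neighbour Dhdds. When every list was shortened to 40073 regions by strength, the Hmga2 end was the one member end left, in both HPC and both 16-week HSC lists. At the tabled starts of the 5 members in the promoter table the count was 1 in knockout HPC, 1 in wild-type HPC, 0 in knockout HSC, 1 in wild-type HSC and 3 each in 5-fluorouracil and vehicle HSC. The one in wild-type HSC was Lin28b, whose tabled start lies inside its annotated ends. Over 17492 tabled protein-coding genes the shares were 55.0% in knockout HPC, 59.7% in wild-type HPC, 55.9% in knockout HSC, 52.7% in wild-type HSC, 63.7% in 5-fluorouracil HSC and 65.3% in vehicle HSC.

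Hmga2 had its start in an accessible region of 1439 bp, 120475585 to 120477023 on chromosome 10, in 4 lists. Its fold enrichment, a ratio that the authors' peak caller gives each peak against its local background, was 9.18 in knockout HPC, 9.21 in wild-type HPC, 7.25 in 5-fluorouracil HSC and 7.18 in vehicle HSC. Ranked by −log10 p, with the weakest region of a list lowest, it stood at percentile 38.7 in knockout HPC, 44.7 in wild-type HPC, 52.4 in 5-fluorouracil HSC and 50.8 in vehicle HSC, the middle of each list. Knockout HSC and wild-type HSC had no region there. This pattern, both HPC and both 16-week HSC lists, was shown by 7 of the 102 regions, 6.86%, against 4.42% of all regions. A second region 0.629 kb upstream, 120477098 to 120477847, was in wild-type HPC with 6.61, 5-fluorouracil HSC with 5.18 and vehicle HSC with 5.44, and not in knockout HPC.

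Lin28b had the fewest regions of the 7 genes, 4 over its 110 kb and flanks, and none was in all 6 lists. At its upper annotated end, 15.4 kb upstream of the tabled start, a region at 45485631 to 45487152 was found only in the 16-week lists, with a fold enrichment of 4.50 in 5-fluorouracil HSC and 5.56 in vehicle HSC. It was weak, at percentile 3.21 and 10.8. A second weak region, 45483303 to 45483515, was in the same 2 lists with 4.08 and 4.41. The region nearest the tabled start, 45469053 to 45469731, ended 0.470 kb downstream of it. It was absent from knockout HSC and present in wild-type HSC with 10.9, and it was also in 5-fluorouracil HSC with 8.51 and vehicle HSC with 9.42 but in neither HPC list. Its percentile was 10.8 in wild-type HSC, which is among the weaker regions. The remaining one, 45373022 to 45373736, lay 2.88 kb beyond the lower end and within 1 kb of an end of the neighbouring gene Bves. Knockout HPC thus had 0 Lin28b regions, wild-type HPC, knockout HSC and wild-type HSC 1 each, and 5-fluorouracil and vehicle HSC 4 each. At equal list length this order turned. The regions left were then the one at Bves in wild-type HPC and the one near the tabled start in wild-type HSC, and the other 4 lists, both 16-week ones among them, held 0.

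**Figure D1:**
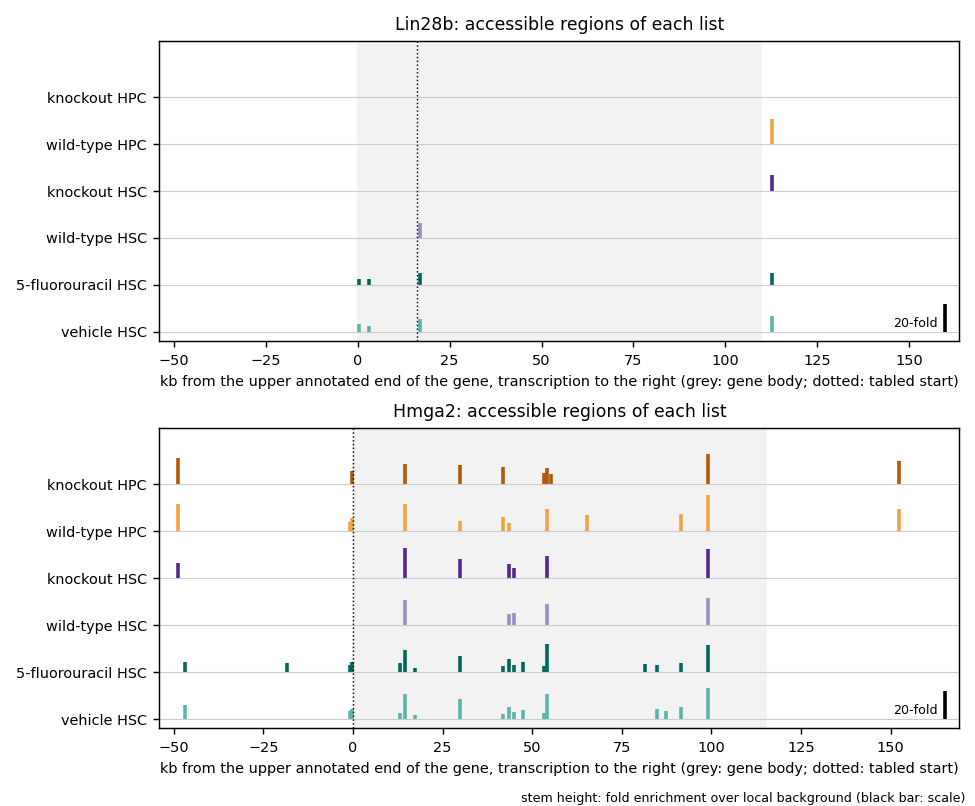
Accessible regions of Lin28b and Hmga2 in the 6 lists, each row a list and each stem a region, placed by its summit in kb from the upper gene end and with its height giving fold enrichment. Hmga2 shows stems at its start in the HPC and 16-week HSC rows and none in the knockout and wild-type HSC rows, while Lin28b has 0 stems in knockout HPC and 4 in each 16-week row, where 0 are left at equal list length.

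Inside Hmga2, by contrast, 3 regions were in all 6 lists. The strongest, 120377184 to 120378089, lay 99.06 kb into the gene with 21.2 in knockout HPC, 25.4 in wild-type HPC, 21.0 in knockout HSC, 19.2 in wild-type HSC, 19.4 in 5-fluorouracil HSC and 22.3 in vehicle HSC. The others were 54.22 and 14.52 kb into the gene, with fold enrichments between 11.6 and 20.2 and between 14.1 and 21.7. So the body of Hmga2 was accessible in 8-week HSC while its start was not in their lists. A region 44.81 kb into the gene, 120431520 to 120431782, was in all 4 HSC lists and in neither HPC list, with 7.24 in knockout HSC, 8.32 in wild-type HSC, 5.31 in 5-fluorouracil HSC and 5.25 in vehicle HSC. Beyond the lower end, the region 120323689 to 120324203 was instead in both HPC lists alone, with 16.5 in knockout HPC and 16.1 in wild-type HPC. A further 5 Hmga2 regions were only in the 2 16-week lists, and 5 were in a single list.

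Igf2bp1, Igf2bp2 and Igf2bp3 encode RNA-binding proteins that stabilise their target transcripts. The start of Igf2bp2 lay in a region, 22162260 to 22163935 on chromosome 16, of the 16-week lists only, with 5.70 in 5-fluorouracil HSC and 6.02 in vehicle HSC. It held 11 regions away from its ends and inside its body, of which 3 were in all 6 lists. One of 503 bp, 22095641 to 22096143, had 11.9 in wild-type HPC, 19.2 in knockout HSC, 19.4 in wild-type HSC, 13.8 in 5-fluorouracil HSC and 17.2 in vehicle HSC, and was absent from knockout HPC. Nearer the start, the region 22151735 to 22152199 was in the 4 HSC lists and in neither HPC list, with 13.8 in knockout HSC, 11.3 in wild-type HSC, 4.36 in 5-fluorouracil HSC and 6.66 in vehicle HSC. Another, 22118816 to 22119884, had 12.8 in knockout HPC and 14.5 in wild-type HPC, was in neither 8-week HSC list, and had 5.45 in 5-fluorouracil HSC and 6.24 in vehicle HSC. At equal list length the region near the start was left in both 8-week HSC lists alone, and this one in both HPC lists alone. The strongest Igf2bp2 region in all lists, 22008981 to 22010040, lay at the end of the neighbour Senp2, a SUMO protease gene.

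Igf2bp3 had no region within 1 kb of an end, and its most enriched region was 39.26 kb inside the gene, at 49175877 to 49176553 on chromosome 6. The fold enrichment there was 30.9 in knockout HPC, 31.0 in wild-type HPC, 31.0 in knockout HSC, 23.2 in wild-type HSC, 13.7 in 5-fluorouracil HSC and 20.3 in vehicle HSC, the highest of the 102 regions in both HPC lists and in knockout HSC. A region 2.55 kb upstream of the tabled start, 49217502 to 49218319, was held by the same 4 lists as the Hmga2 start. It had 14.7 in knockout HPC, 11.6 in wild-type HPC, 9.08 in 5-fluorouracil HSC and 10.8 in vehicle HSC, and no row in either 8-week HSC list. The same lists held a region 6.56 kb inside the upper gene end, 49208278 to 49208905, with 15.5 in knockout HPC, 14.5 in wild-type HPC, 4.93 in 5-fluorouracil HSC and 5.94 in vehicle HSC. At equal list length the upstream region was left in knockout HPC alone and the inner one in both HPC lists alone, unlike the Hmga2 start, which 4 lists kept. Between those lies the region 49210361 to 49210820, which was in knockout HSC with 10.4 and not in wild-type HSC, and was in 5-fluorouracil HSC with 8.51 and vehicle HSC with 8.73.

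Igf2bp1 had no region at either end in any list, and 2 inside the gene. The one at 95981036 to 95981461 on chromosome 11 was in all 6 lists, with 18.5 in knockout HPC, 20.6 in wild-type HPC, 13.1 in knockout HSC, 11.3 in wild-type HSC, 9.37 in 5-fluorouracil HSC and 11.3 in vehicle HSC. The other, 95998886 to 95999370, was in wild-type HPC alone with 13.4. Outside the gene, 16.6 kb below its lower end, a region at 95940042 to 95940528 was absent from knockout HSC and had 15.5 in wild-type HSC. There the HPC values were 9.27 in knockout, at percentile 4.86 of its list, and 25.5 in wild type, at percentile 63.7, and the 16-week values were 12.5 in 5-fluorouracil HSC and 13.4 in vehicle HSC. Lin28a likewise had no region within 1 kb of its ends. Its nearest upstream one, 134020521 to 134021107 on chromosome 4, was 1.71 kb from the tabled start and only in the 16-week lists, with 4.58 in 5-fluorouracil HSC and 6.31 in vehicle HSC. The strongest, 134052257 to 134053094, lay 33.1 kb above the gene with values between 25.1 and 28.0 in all 6 lists. A weaker one 9.99 kb above the lower end of Lin28a, 134013154 to 134013632, had 14.3 in knockout HPC, 13.1 in wild-type HPC, 13.0 in wild-type HSC and, of the 16-week lists, 8.81 in vehicle HSC alone, with no row in knockout HSC.

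The Arid3a window is crowded, with 11 other protein-coding genes, and 12 of its 26 regions lay within 1 kb of an end of one of them. A region over the lower end of Arid3a, 79926065 to 79927995 on chromosome 10, had 6.21 in knockout HPC, 4.98 in 5-fluorouracil HSC and 5.35 in vehicle HSC, and was absent from wild-type HPC, knockout HSC and wild-type HSC. Inside the gene, 3 regions were in all 6 lists, with fold enrichments between 3.55 and 11.7. The region 79914300 to 79915191, within the neighbour R3hdm4, was in the 4 HSC lists and in neither HPC list, with 8.41 in knockout HSC, 7.87 in wild-type HSC, 9.64 in 5-fluorouracil HSC and 9.23 in vehicle HSC. The window also holds Prtn3 and Elane, neutrophil protease genes, and a region at an end of Prtn3, 79883708 to 79884858, had 5.83 in wild-type HPC, 6.80 in knockout HSC, 6.33 in wild-type HSC, 5.25 in 5-fluorouracil HSC and 6.47 in vehicle HSC but was absent from knockout HPC.

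**Figure D2:**
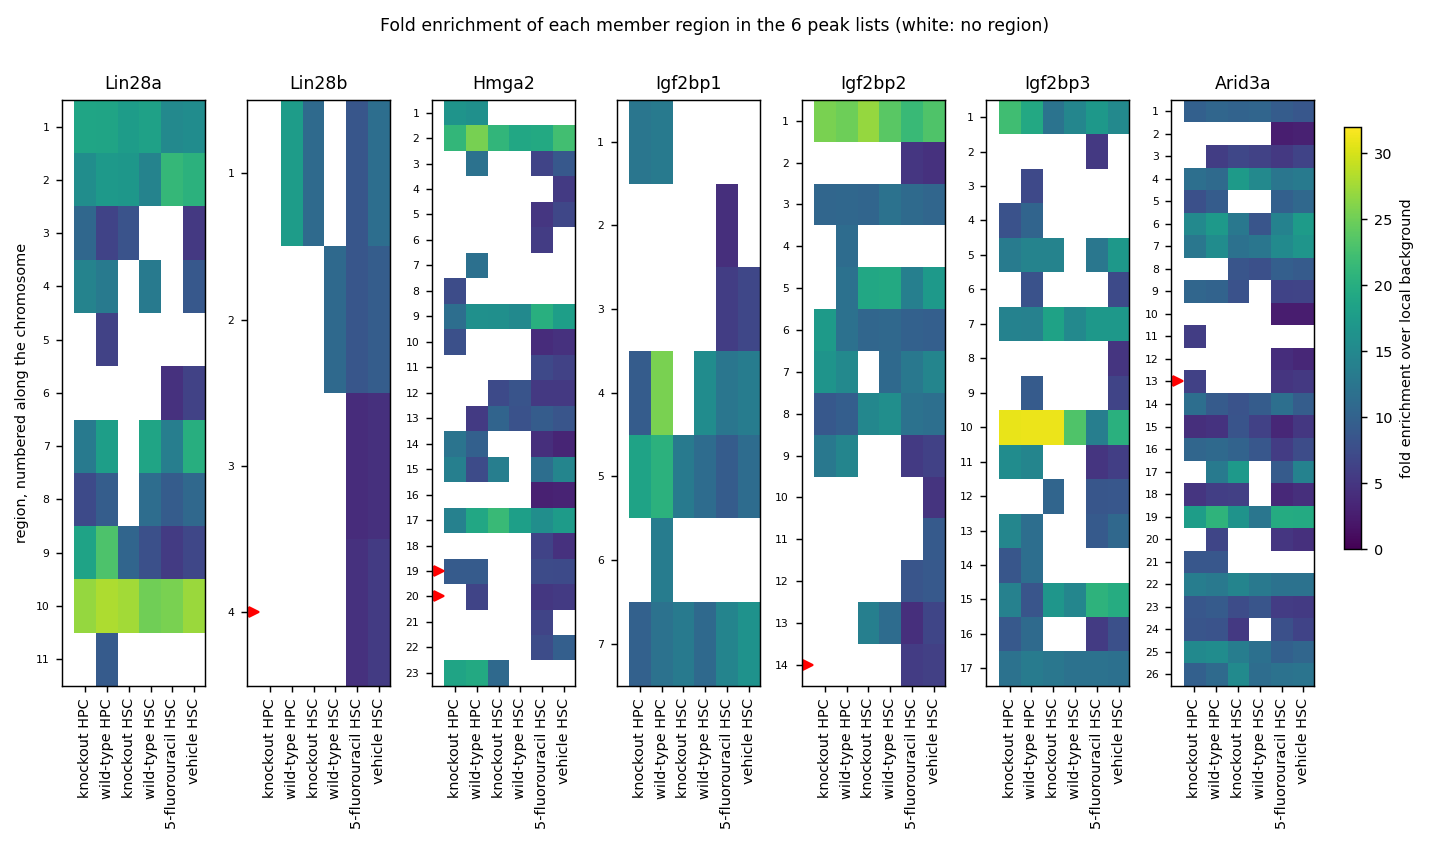
Fold enrichment of the 102 regions in the 6 lists, 1 panel per gene, with regions numbered along the chromosome, white for no region and red marks for the 5 regions within 1 kb of an end of the gene. The marked rows are white in both 8-week HSC columns, while 30 rows are coloured across all 6 columns.

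Of the 102 regions 30, or 29.4%, were in all 6 lists, against 32.2% of all 94178 regions, and 16, or 15.7%, were in a single list, against 18.1%. In both 16-week lists alone were 15, or 14.7%, against 10.8%, and in both HPC lists alone 5, or 4.90%, against 4.02%. The 3 regions of the 4 HSC lists alone were 2.94%, against 1.83%. In neither 8-week HSC list were 50, or 49.0%, against 46.1%. These shares lay near those of the whole series. By position, of the 5 at a member's end 0 were in all lists, of the 44 inside a member 11, of the 22 at the end of another gene 12, and of the 31 others 7, and no share over all regions by position was computed to set beside these. The regions at member ends were also wide, with a median of 1522 bp, against 491 bp inside the genes. Within each list the member regions were of lower fold enrichment than the list as a whole, with medians of 12.4 against 14.5 in knockout HPC, 11.9 against 14.1 in wild-type HPC, 12.9 against 15.4 in knockout HSC, 12.1 against 14.9 in wild-type HSC, 8.51 against 10.5 in 5-fluorouracil HSC and 8.81 against 10.2 in vehicle HSC. By −log10 p they were not lower in every list, with a median percentile of 41.1 in knockout HPC, 44.8 in wild-type HPC, 47.5 in knockout HSC, 51.6 in wild-type HSC, 44.5 in 5-fluorouracil HSC and 50.5 in vehicle HSC.

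**Figure D3:**
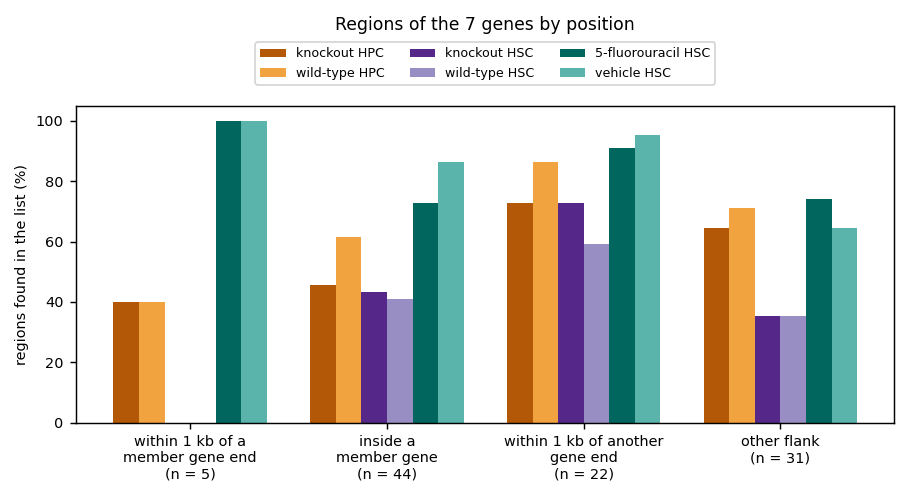
Share of the 102 regions found in each list, in percent, by position: within 1 kb of an end of the 7 genes, inside them, at the end of another gene, or elsewhere in the flanks. At member ends the bars of knockout and wild-type HSC are at 0 of 5 and those of 5-fluorouracil and vehicle HSC at 5 of 5.

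The first comparison between groups asked what differed in HSC without Kmt2c. Among member regions, 10 of 46 in knockout HSC, 21.7% (12.3 to 35.6), had no counterpart in wild-type HSC, where the share over all knockout HSC regions was 25.3%. Conversely 6 of 42 in wild-type HSC, 14.3% (6.72 to 27.8), had none in knockout HSC, against 9.46% of all. The 10 lay near Arid3a, with 4, Hmga2 and Igf2bp3, with 2 each, and Lin28a and Lin28b, with 1 each. The 6 were 3 near Lin28a and 1 each near Lin28b, Igf2bp1 and Igf2bp2. Regions of 1 list were weak, with a median percentile of 18.1 for the 10, against 58.8 for shared ones, and 20.8 for the 6, against 55.0. The highest of the 10 was 79946006 to 79947103 inside Arid3a, with 17.2 at percentile 57.7 in knockout HSC. Within Hmga2 the region 120445936 to 120446914 had 13.7 in knockout HSC and was absent from wild-type HSC, and it was also in knockout HPC with 13.8, wild-type HPC with 7.31, 5-fluorouracil HSC with 11.6 and vehicle HSC with 14.5. The highest of the 6 was 134035929 to 134036569 above Lin28a, absent from knockout HSC and at 18.7 in wild-type HSC, at percentile 49.3. A pattern opposed between the cell types, present in knockout HSC and wild-type HPC but in neither wild-type HSC nor knockout HPC, was seen at 2 of the 102 regions, 1.96%, against 2.48% of all. Its mirror image occurred at 0.154% of all regions. The first of these patterns joins the longer list of each pair. Those are knockout HSC, with 48620 regions against 40073, and wild-type HPC, with 65832 against 52840. Genotype and list length cannot be told apart here. Of 3 macrophage marker genes, 3 had a region at an end in knockout HSC and 1 in wild-type HSC. In the same order, neutrophil markers gave 1 and 0 of 3, T cell markers 1 and 0 of 3 and HSC markers 7 and 6 of 8. Endothelial and stromal markers went the other way, with 1 of 3 in knockout HSC and 2 of 3 in wild-type HSC. Counts were equal for progenitor markers, 2 and 2 of 6, B cell markers, 0 and 0 of 3, and erythroid markers, 2 and 2 of 3. Over all protein-coding genes the shares were 55.2% in knockout HSC and 51.7% in wild-type HSC. The part of such cells in these differences was not tested.

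In progenitors, 4 of 58 knockout HPC regions, 6.90% (2.71 to 16.4), were absent from wild-type HPC, against 6.72% of all knockout HPC regions. Of 70 wild-type HPC regions, 16, or 22.9% (14.6 to 34.0), were absent from knockout HPC, against 25.2% of all. The 4 were 2 near Hmga2 and 2 near Arid3a, none above percentile 16.4 of the knockout list. The 16 touched every member, with 4 near Hmga2, 3 each near Igf2bp3 and Arid3a, 2 each near Lin28a and Igf2bp2 and 1 each near Lin28b and Igf2bp1. For Lin28b this was its only HPC region, 45373022 to 45373736, with 17.7 at percentile 44.1. The wild-type HPC list pooled 4 samples and held 65832 regions, and the knockout HPC list 2 samples and 52840 regions. Genotype and the number of pooled samples cannot be told apart here. At equal list length 8 of 43 knockout HPC regions, 18.6%, were absent from wild-type HPC, against 10.1% of all. Marker genes with a region at an end were, in knockout HPC and then wild-type HPC, 3 and 4 of 6 progenitor markers, 0 and 1 of 3 B cell, 1 and 2 of 3 neutrophil, 2 and 3 of 3 macrophage, and 1 and 2 of 3 endothelial and stromal markers. Counts were equal for HSC markers, 7 and 7 of 8, T cell markers, 2 and 2 of 3, and erythroid markers, 2 and 2 of 3. Over all protein-coding genes the shares were 54.5% in knockout HPC and 59.7% in wild-type HPC. The part of such cells was not tested.

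After 3 rounds of 5-fluorouracil, 4 of 80 regions, 5.00% (1.96 to 12.2), were absent from vehicle HSC, against 5.64% of all 5-fluorouracil regions. Of 84 vehicle regions 8, or 9.52% (4.91 to 17.7), were absent from 5-fluorouracil HSC, against 16.3%. None of the 5 regions at member ends and none of the 4 Lin28b regions was among these 12. The 4 were 2 near Hmga2 and 1 each near Igf2bp1 and Igf2bp3, at 5.72, 6.51, 4.36 and 5.30, all at or below percentile 16.5 of the list. The 8 were 3 near Igf2bp3, 2 each near Lin28a and Igf2bp2 and 1 near Hmga2, and the most enriched was 22131264 to 22131758 inside Igf2bp2, with 9.09 in vehicle HSC. Vehicle HSC had the longer list, with 80100 regions against 71363 after 5-fluorouracil. Treatment and list length cannot be told apart here. Progenitor markers were accessible at an end in 3 of 6 genes in 5-fluorouracil HSC and 5 of 6 in vehicle HSC. The other marker lists gave equal counts in both. These were 8 of 8 HSC markers and, of 3 each, 1 T cell, 2 B cell, 0 neutrophil, 1 macrophage, 2 erythroid and 2 endothelial and stromal markers. Over all protein-coding genes the shares were 63.3% in 5-fluorouracil HSC and 65.3% in vehicle HSC. The part of such cells in the difference was not tested.

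Progenitors were last set against stem cells. Of 70 wild-type HPC regions 32, or 45.7% (34.6 to 57.3), were absent from wild-type HSC, against 44.1% of all, and 4 of 42 wild-type HSC regions, 9.52% (3.77 to 22.1), had no counterpart in wild-type HPC, against 8.37%. At equal list length these shares were 28.6% both ways, 12 of 42 regions each, against 24.1% and 23.1% of all regions. Igf2bp3 gave 9 of the 32, Hmga2 8 and Arid3a 7. In the knockout, 21 of 58 HPC regions, 36.2% (25.1 to 49.1), were absent from HSC, against 27.3% of all, and 9 of 46 HSC regions, 19.6% (10.7 to 33.2), were absent from HPC, against 21.2%. Hmga2 and Igf2bp3 gave 5 each of the 21. The Hmga2 region 120525051 to 120525383, 48.6 kb above the gene, was the strongest of those present in wild-type HPC and not in wild-type HSC near that gene, with 18.7 in knockout HPC, 19.4 in wild-type HPC and 10.9 in knockout HSC and no row in wild-type, 5-fluorouracil or vehicle HSC. T cell, neutrophil and macrophage markers had a region at an end in 2, 2 and 3 of 3 genes each in wild-type HPC and in 0, 0 and 1 in wild-type HSC. In the same order, HSC markers gave 7 and 6 of 8, progenitor markers 4 and 2 of 6 and B cell markers 1 and 0 of 3. Erythroid and endothelial and stromal markers gave 2 and 2 of 3 each. Over all protein-coding genes the shares were 59.7% and 51.7%, and the part of such cells was not tested. In all 10 directions over the 5 pairs, the interval of the member share held the share over all regions. Neighbouring regions are not independent and the intervals are wide, so this cannot decide whether member shares differ from those of all regions.

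**Figure D4:**
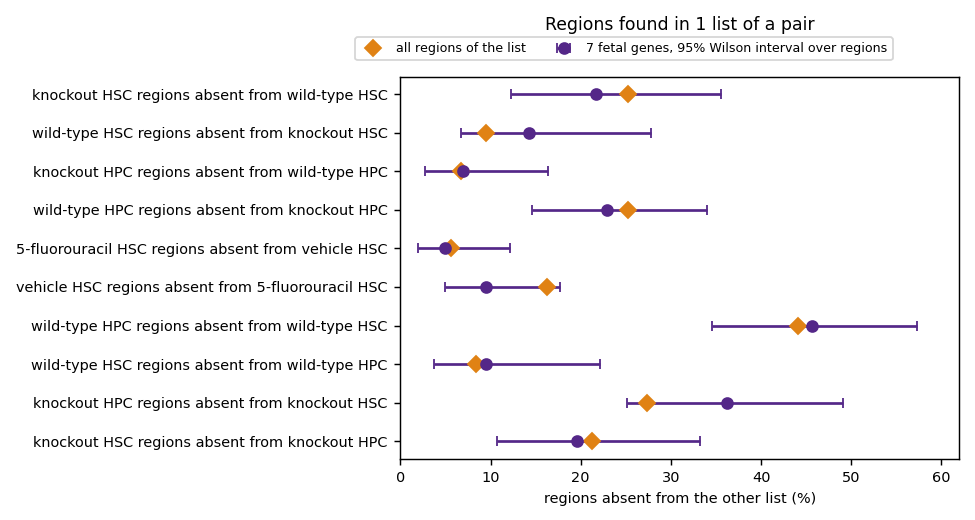
Percent of regions of 1 list that are absent from the other list of a pair, for the 7 genes (circles, with 95% Wilson intervals over regions) and for all regions of the list (diamonds). The diamonds lie inside all 10 intervals.

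The let-7 side of the pathway was looked up through 11 let-7 hairpin genes. Let-7 microRNAs share the seed by which they find their targets, and in RefSeq 10 of the hairpins with a 5p entry gave 8 different mature sequences and 1 seed. Shown are the let-7 whose hairpin was accessible and 2 for contrast, with the seed (bases 2 to 8) in capitals.
let-7i-5p: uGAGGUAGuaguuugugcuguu
let-7g-5p: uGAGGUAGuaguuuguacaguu
let-7d-5p: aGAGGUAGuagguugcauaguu

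Mirlet7i, on chromosome 10, had a region within 1 kb of its hairpin in all 6 lists, with 6.39 in knockout HPC, 5.68 in wild-type HPC, 6.35 in knockout HSC, 5.74 in wild-type HSC, 6.85 in 5-fluorouracil HSC and 6.49 in vehicle HSC. The other 10 hairpins had none in any list. A hairpin can lie far from the start of its primary transcript, so this does not describe those starts. Of 10 other genes of the let-7 pathway, 7 were accessible at an end in all 6 lists, against 47.4% of all protein-coding genes. Drosha, the nuclear enzyme that releases the hairpin, had 32.1 in knockout HPC, 30.3 in wild-type HPC, 31.2 in knockout HSC, 31.7 in wild-type HSC, 28.0 in 5-fluorouracil HSC and 28.7 in vehicle HSC. Tarbp2, a partner of Dicer, and Dis3l2, which degrades let-7 precursors tagged through LIN28, had no region within 1 kb of their ends in the gene table in any list, and Trim71, a let-7 target, had one in wild-type HPC alone with 4.91.

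Among 11 other genes of fetal stem cells and growth, 7 were accessible at an end in all 6 lists. They included Sox17, which fetal and not adult HSC depend on, with values between 19.5 and 24.9, and Hmga1, the relative of Hmga2, with values between 5.09 and 7.72. Igf2 and H19, an imprinted pair, had no region at an end in any list. Igf2r, the receptor that clears IGF2, had one in 5-fluorouracil HSC with 6.09 and vehicle HSC with 8.07 and in no 8-week list. Over all protein-coding genes 47.4% had a region at an end in all 6 lists.

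The cell labels were set beside marker genes. Of 8 HSC markers 6 were accessible at an end in every list, also in HPC. Hoxb5 was absent from knockout HPC, wild-type HPC and wild-type HSC, and Slamf1 from both 8-week HSC lists, so the ends of these genes do not separate HSC from HPC. The progenitor marker Cd48 was absent from both 8-week HSC lists and present in the other 4. Of the rest of the 6 progenitor markers, Cd34 and Flt3 were in all 6 lists and Ctsg in wild-type HPC alone. Mpo and Cebpe were in vehicle HSC alone and in neither HPC list, so these ends do not mark HPC either. Of the defining genes of other cells, Cd8a, Ms4a1, Ly6g, Hba-a1 and Cdh5 had no region at an end in any list.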

How the data were processed

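ATAC-seq peak lists of 6 groups, covering 18 samples, were used. Per the submitters' processing notes, Bowtie2, MACS2 and mm10 (GRCm38) were used, with versions not given in the sources used here. All samples of a group name 1 list, so each list was taken to pool them, and how is not given. The lists have no header. Each row gives the deposited fold enrichment, a ratio to local background, the deposited −log10 p, an adjusted −log10 q and a deposited score that were not used, and the other deposited column used, a summit offset. The lowest −log10 p was 2.00 or 2.01 in every list. The number of reads per sample is unknown.

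Rows were merged across lists where they overlapped by 1 bp, and a list held a region if any of its rows fell there. Percentiles rank the −log10 p of merged regions within a list. RefSeq GRCm38.p6 gave gene bodies, without strand, exons or introns, and promoter and microRNA sequences. All 7 members matched by symbol, 5 have a promoter window, and the strand of these 5 was taken from it. Python 3.11.15, pandas 2.3.3, scipy 1.17.1 and matplotlib 3.10.9 were used, and merging was tested on simulated data. Regions to name were those within 1 kb of a member's end, the 2 others of highest median fold enrichment, and up to 2 per direction found in 1 list of a pair. Further regions were picked after their values were seen. The members and gene lists were chosen with earlier results of these data known. The values of 1 listed gene are not reported here.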

Additional observations from a re-analysis of the deposited data

Results flagged for a closer look

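HSC and HPC gave opposite presence by genotype at 2 regions, and the difference was not tested. The region 45373022 to 45373736 on chromosome 10, below Lin28b and at an end of Bves, was in knockout HSC with a fold enrichment of 11.1 and not in wild-type HSC, whereas in progenitors it was absent from knockout HPC and had 17.7 in wild-type HPC. It was also in 5-fluorouracil HSC with 8.51 and vehicle HSC with 11.6. The region 79946006 to 79947103 inside Arid3a was in knockout HSC with 17.2 and not in wild-type HSC, and was absent from knockout HPC and at 13.2 in wild-type HPC. It had 9.24 in 5-fluorouracil HSC and 14.2 in vehicle HSC. These 2 of 102 regions are 1.96%, and 2340 of all 94178 regions, 2.48%, had the same pattern. At equal list length the region below Lin28b was left in wild-type HPC alone and lost the opposed pattern, and the one inside Arid3a kept it, in knockout HSC, wild-type HPC and vehicle HSC.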

How the results depend on the processing

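Each list was also shortened to its 40073 strongest regions, freed of its weakest 25% of rows, regrouped by summits at most 200 bp apart, and read with windows of 10 kb and 100 kb; results without the Arid3a window and with gene ends read to 2.5 kb were added after seeing the data. The 102 regions became 60 at equal list length, 197 as summit clusters, 59 with 10 kb and 165 with 100 kb. At equal length 8 of 43 knockout HPC regions, 18.6%, were absent from wild-type HPC, against 10.1% of all. Of wild-type HPC regions 12 of 42, 28.6%, were absent from wild-type HSC, against 24.1%. Of wild-type HSC regions 12 of 42, 28.6%, were absent from wild-type HPC, against 23.1%. The other shares stayed inside their intervals in these settings, and all of them did without the weakest rows and without Arid3a. At 2.5 kb, member genes with a region at an end were 4 in knockout HPC, 3 in wild-type HPC, 1 in knockout HSC and 2 in wild-type HSC. They were 6 each in 5-fluorouracil and vehicle HSC, and Lin28a counted in every list. At equal length they were 1 each in knockout HPC, wild-type HPC, 5-fluorouracil HSC and vehicle HSC, all Hmga2. The cause was not tested. No paired analysis was possible because the files hold 1 pooled list per group, and no replicate could be left out. Depth is unknown, so a region missing from a list was not called there, and was not shown to be closed.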
